A study of Mus musculus with 778 samples.

Results

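Sohlh1, Sohlh2, Figla, Lhx8 and Nobox are 5 of the 23201 genes in a table of UMI counts (UMIs are molecular tags, so that each RNA molecule is counted once) from 223 single mouse oocytes. They were chosen by name, as the transcription factor genes known to form the regulatory network of the early oocyte, and all 5 were read from that table. Each oocyte was picked by hand from dissociated ovaries of wild type ICR female mice and staged by its diameter. The stages were non-growing oocytes (NGO, below 20 μm, 46 cells), growing oocytes GO1 (30 to 45 μm, 51 cells), GO2 (50 to 55 μm, 26 cells) and GO3 (60 to 65 μm, 44 cells), and fully grown oocytes (FGO, above 70 μm, 56 cells). NGO were taken at an age of 3 to 4 days and the other 4 stages at 3 to 4 weeks, so the start of growth and the age of the mouse cannot be told apart. The cells came from 4 libraries, which cannot be told apart in the table, so that each stage was 1 pooled sample. Stages were therefore compared without a test between them. All intervals below are 95% intervals that cover counting error only.

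Sohlh1, Sohlh2 and Figla encode basic helix-loop-helix (bHLH) proteins, which bind DNA as dimers at the E-box. Sohlh1 and Sohlh2 are germ cell factors required for primordial follicles to form and grow, and they act upstream of Lhx8, Figla and Nobox. Figla is required for primordial follicle formation and drives the zona pellucida genes, which encode the coat of the egg. Lhx8, a LIM-homeobox factor, and Nobox, a homeobox factor, are both required for the oocyte to move beyond the primordial follicle. In mice that lack any of these factors, oocytes are lost soon after birth.

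On the mouse genome build NCBIM37 (the same assembly as mm9), Sohlh1 lies on chromosome 2 (25698515 to 25702768, minus strand) with 8 exons, and Figla on chromosome 6 (85967185 to 85970990, plus strand) with 3 exons. Nobox lies elsewhere on chromosome 6 (43253673 to 43259561, minus strand). Sohlh2 (54985950 to 55013879, plus strand) and Lhx8 (153969260 to 153993615, minus strand) are both on chromosome 3. No other annotated gene overlapped any of the 5. Since 3 of the factors bind E-boxes, the 250 bases before the RefSeq transcription start of Sohlh1, Figla and Nobox are shown 5′ to 3′ on the strand of the gene, with each E-box (CANNTG, which reads as an E-box on both strands) in capitals. The sequences are those of RefSeq (GRCm38.p6) and each was found once, base for base, in NCBIM37, at chr2:25702769-25703018 for Sohlh1, chr6:85966935-85967184 for Figla and chr6:43259554-43259803 for Nobox.
Sohlh1: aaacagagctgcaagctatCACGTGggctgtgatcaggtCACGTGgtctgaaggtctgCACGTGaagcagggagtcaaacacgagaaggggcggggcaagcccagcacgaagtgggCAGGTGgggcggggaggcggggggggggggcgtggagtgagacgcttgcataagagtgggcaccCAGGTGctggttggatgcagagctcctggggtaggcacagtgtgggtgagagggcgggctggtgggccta
Figla: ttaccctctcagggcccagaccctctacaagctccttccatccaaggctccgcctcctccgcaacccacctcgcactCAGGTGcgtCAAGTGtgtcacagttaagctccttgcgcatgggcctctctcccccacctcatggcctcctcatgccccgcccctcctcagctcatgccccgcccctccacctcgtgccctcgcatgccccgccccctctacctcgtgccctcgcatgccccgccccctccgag
Nobox: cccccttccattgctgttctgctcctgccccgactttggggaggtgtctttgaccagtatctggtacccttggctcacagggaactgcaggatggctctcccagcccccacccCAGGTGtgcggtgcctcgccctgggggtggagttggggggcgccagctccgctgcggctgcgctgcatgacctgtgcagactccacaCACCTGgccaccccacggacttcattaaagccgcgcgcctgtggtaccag

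The Sohlh1 window held 5 E-boxes, those of Figla and Nobox 2 each, that of Sohlh2 1 and that of Lhx8 none. Of 32851 promoter windows of this length, 66.2% held at least 1 E-box and 12.2% held 3 or more. In Sohlh1, 3 of the 5 E-boxes had the letters CACGTG, starting 231, 211 and 192 bases before the start. CACGTG, a form of E-box singled out after it was seen here, was found in 6.02% of all windows, and only 20 windows (0.0609%) held 3 or more. The Nobox binding element was searched as the letters TAATTG on both strands and as TAATTA, which reads the same on both, and was found in 11.3% of all windows and in none of these 5. These are matches of letters, and binding was not measured.

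Levels are given as CPM, the UMIs of a gene per 1000000 UMIs of all genes, in the summed cells of a stage or in single cells. CPM is a share of the RNA captured and not an amount per oocyte, and the stages differ greatly in oocyte volume, so fewer molecules of a gene and more RNA of all other genes cannot be told apart. Cells held from 22279 to 3898137 UMIs, with a median of 110146 in GO1 and 540432 to 972294 in the other stages. The 10 deepest of the 51 GO1 cells gave 80.4% of that stage's UMIs and the 10 deepest of the 26 GO2 cells gave 73.2%, so that sums in these stages rest on few cells. The 8 oocyte markers were Ddx4, Dazl, Dppa3, Zp3, Gdf9, Bmp15, Kit and Figla. All 8 were above 10 CPM in every stage, and their summed level was at least 9794 CPM in every cell. Figla is also a member, and Zp3, Gdf9, Bmp15 and Kit are also among the downstream genes below. The 12 granulosa markers summed to 20.7 to 52.9 CPM by stage, the 9 stroma and endothelium markers to 12.6 to 49.8 CPM, of which Pecam1 gave most from GO1 onwards, and the 6 blood markers to 1.61 to 4.76 CPM. Foxl2, which defines granulosa cells, stayed below 0.3 CPM in each stage. The granulosa sum was lowest in NGO and highest in GO1, opposite to the members that fell, and 2 of the 12 genes were called higher in GO1, Cyp19a1 (1.11 to 16.3 CPM) and Nr5a2 (6.91 to 14.5 CPM). Their part in the results below was not tested.

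Sohlh1 was present in every non-growing oocyte and almost absent from the smallest growing ones. All 46 NGO cells held its transcript, from 93.7 to 795 CPM with a median of 387. In GO1, 46 of 51 cells held no UMI of it, and the stage sum was 0.336 CPM (95% interval 0.154 to 0.639, 9 UMIs). That was a fall of 1111-fold (585 to 2430) from the 374 CPM of NGO. With so few UMIs in GO1 its size was uncertain, at 566-fold as the mean over cells and 2367-fold with 26 cells drawn from each stage.
The share of GO1 cells with a Sohlh1 UMI (5 of 51, 9.80%, exact interval 3.26 to 21.4%) was the same as that with a UMI of Foxl2, a granulosa gene that oocytes should lack, which had 5 UMIs there. Of 3 other such genes, Amh was found in 3 GO1 cells, Col1a1 in 1 and Ptprc in 0. Sohlh1 then increased through growth, to 0.961 CPM in GO2 (24 UMIs), 2.35 in GO3 and 19.2 in FGO (1238 UMIs). UMIs were found in 8 of 26 GO2 cells, 32 of 44 GO3 cells and 48 of 56 FGO cells, against 3, 3 and 8 for Foxl2. The order of GO1 and GO2 changed with the averaging, at 0.693 CPM in GO1 and 0.558 in GO2 as the mean over cells.
No GO1, GO2 or GO3 cell reached the lowest NGO cell, the highest of them being at 20.6 CPM. FGO cells were spread from 0 to 243 CPM, with a median of 12.5. Of the 56 FGO cells, 32 were above the highest GO3 cell (8.62 CPM), and 4 lay within the NGO range, at 243, 167, 161 and 97.2 CPM. With each cell thinned to 20000 UMIs, so that detection was compared at 1 depth, Sohlh1 was found in 45 of 46 NGO, 0 of 51 GO1, 0 of 26 GO2, 2 of 44 GO3 and 18 of 56 FGO cells. At that depth the 2 counts of 0 have exact upper limits of 6.98% and 13.2% of cells with a UMI, and at full depth 5 of 51 and 8 of 26 cells had one.

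**Figure D1:**
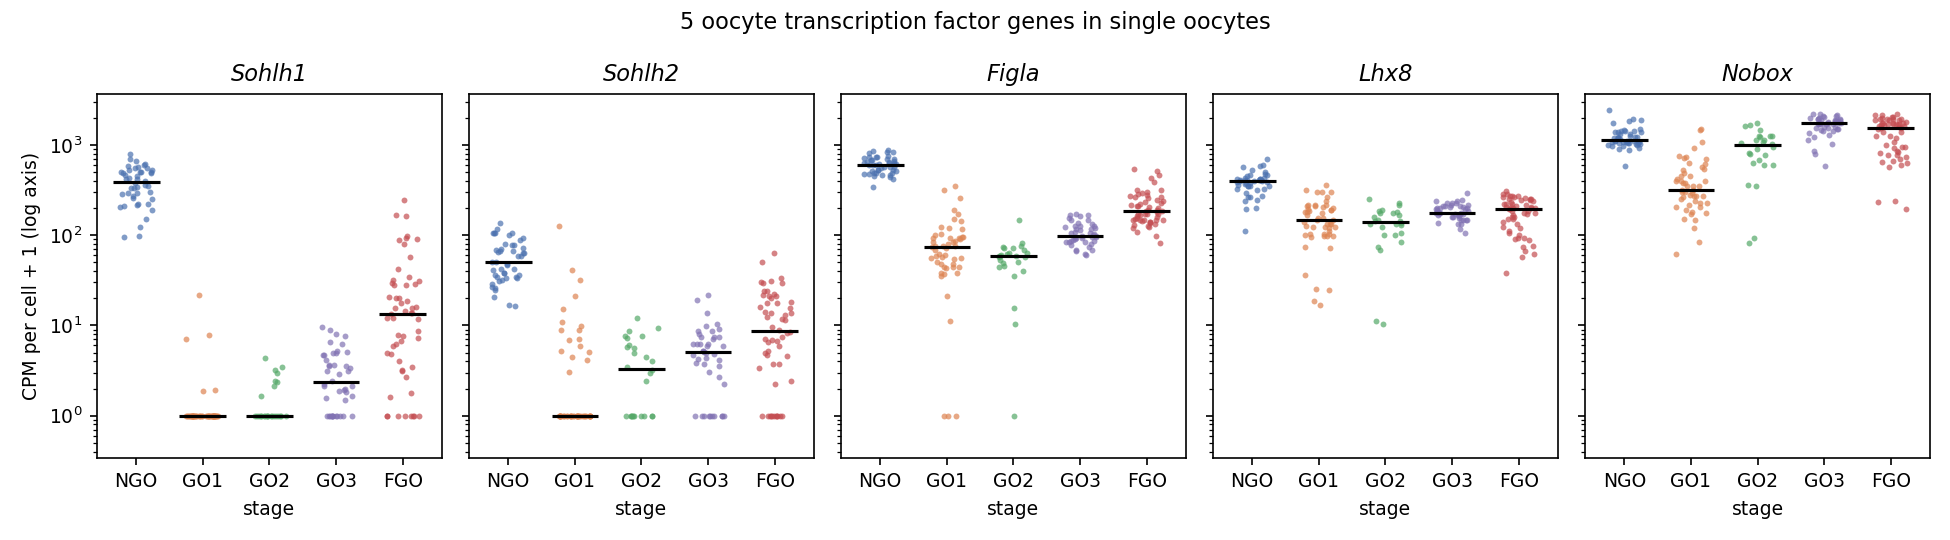
CPM per cell plus 1 (log axis) of Sohlh1, Sohlh2, Figla, Lhx8 and Nobox by stage, 1 point per oocyte, with a black line at the median of each stage. Sohlh1 leaves a gap between the NGO cells (93.7 CPM and above) and all GO1, GO2 and GO3 cells (20.6 CPM and below), while Nobox overlaps in all stages.

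Sohlh2 moved the same way over a smaller range. NGO cells held 15.4 to 134.06 CPM with a median of 49.5, and all 46 held a UMI. The sum over NGO cells was 54.2 CPM (51.3 to 57.1). The later stages, in order, stood at 5.31 (4.47 to 6.26), 4.32 (3.55 to 5.22), 5.36 (4.74 to 6.04) and, for FGO, 11.7 (10.9 to 12.6).
The 3 growing stages overlapped in both their counting intervals and their cells. In GO1, 4 of 51 cells reached the lowest NGO cell, the highest at 124.5 CPM and the next at 40.4. These 4 cells held only 2 to 5 Sohlh2 UMIs each, among 24102 to 162906 UMIs in all, so their CPM is coarse. In FGO, 17 of 56 cells reached the lowest NGO cell, and the highest was at 61.98 CPM. The fall from NGO to GO1 was 10.2-fold (8.58 to 12.2), and 20.0-fold without the 10 deepest cells of each stage. The rise from GO3 to FGO was 2.18-fold (1.90 to 2.52), but was 1.73-fold with the cells thinned to 20000 UMIs.

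Figla fell after NGO and rose again from GO2 onwards. It was at 338 to 884 CPM in NGO cells (median 605), and its stage sums were 597, 65.5, 58.8, 102.3 and 170 CPM from NGO to FGO. The fall from NGO to GO1 was 9.11-fold (8.67 to 9.58), close to that of Sohlh2 in the sums but not without the 10 deepest cells of each stage, where it was 7.52-fold.
No GO2 or GO3 cell reached the lowest NGO cell, and 1 GO1 cell, at 354 CPM, did. FGO cells held 80.9 to 542 CPM with a median of 184, and 31 of the 56 lay above the highest GO3 cell (172 CPM). The ranges between the quartiles did not overlap between GO3 (84.4 to 125.3 CPM) and FGO (145.9 to 258), nor between GO2 (45.6 to 65.8) and GO3, while those of GO1 and GO2 did. The rise from GO3 to FGO was 1.67-fold (1.61 to 1.72) in the sums and 2.01-fold as the mean over cells, which puts it on either side of the 2-fold limit used below.

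Lhx8 fell least of the 4 genes that fell by 2-fold or more. NGO cells held 110.9 to 696 CPM (median 396), and the medians of the later stages lay between 138.4 (GO2) and 195 (FGO). The sums of the stages were 408, 199, 173, 200 and 223 CPM.
From GO1 to FGO the cells of all stages overlapped, and 35 of 51 GO1 cells lay at or above the lowest NGO cell. The fall from NGO to GO1 was 2.06-fold (1.99 to 2.13), just past 2-fold. It was 1.92-fold with DESeq2 size factors, 1.84-fold with TMM factors and 1.76-fold with 26 cells drawn from each stage, and 2.49-fold to 2.58-fold as the mean over cells, with thinned cells or without the 10 deepest cells of each stage.

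Nobox was the only member that ended higher than it began, 1.33-fold in the sums and 1.11-fold as the mean over cells. Its stage sums from NGO to FGO were 1244, 897, 1186, 1745 and 1658 CPM, and all 223 cells held it. No step of these sums reached 2-fold. FGO cells 38 to 56, by their number in the table, all held 988 CPM or less, below the NGO median of 1141.
The dip in GO1 was much deeper in the single cells than in the sum. The median GO1 cell held 319 CPM, against 1141 in NGO, and the mean over cells was 419 CPM, against 1237, 2.95-fold lower. The 8 GO1 cells with the most Nobox UMIs held 89.3% of them, and Nobox rose with the total UMIs of a GO1 cell (r = 0.75 over 51 cells), so the stage sum is the level of the deepest cells. Between the quartiles, GO1 cells (224 to 510 CPM) lay below those of every other stage. Whether the depth of a cell or its place within the GO1 size range sets this was not tested.

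For a stage comparison without replicates, a gene was called lower or higher when its sums differed at least 2-fold and the higher of them was 10 CPM or more. Of the 5 members, 4 were lower in GO1 than in NGO (Sohlh1, Sohlh2, Figla and Lhx8) and none was higher, where 25.7% of the 8527 genes with 10 CPM in either stage were lower and 20.6% were higher. The median log2 change was -3.19 over the members and -0.14 over all these genes. DESeq2 and TMM scaling moved the log2 change of all genes in this step by 0.10 and 0.16, and under either scaling Lhx8 was no longer called, which left 3 members. As the mean over cells, without the 10 deepest cells of each stage or with cells thinned to 20000 UMIs, Nobox was called too, which gave all 5.
None of the 5 was called from GO1 to GO2 (3.03% of genes lower, 0.109% higher) or from GO2 to GO3 (1.01% lower, 3.34% higher). Only 3 of them could be, as Sohlh1 and Sohlh2 were below 10 CPM in GO1, GO2 and GO3. The Sohlh1 sums rose 2.86-fold (1.28 to 6.98) and then 2.44-fold (1.57 to 3.97). The first of these changes turned to a fall as the mean over cells. From GO3 to FGO, Sohlh1 and Sohlh2 were higher and none was lower, where 2.41% of 7622 genes were higher and 3.54% lower.
Every NGO cell was above every GO1 cell for 1 member, Sohlh1 (0.915% of genes). The same held in GO2 for Sohlh1, Sohlh2 and Figla (3.05% of genes) and in GO3 for Sohlh1 and Figla (1.88% of genes).

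As a percent of their own NGO level, the genes kept 1 order in each later stage, from Sohlh1 through Sohlh2, Figla and Lhx8 to Nobox. In GO1 the stage sums stood at 0.0900%, 9.80%, 10.97%, 48.6% and 72.1% of NGO in that order. In FGO they stood at 5.15%, 21.6%, 28.5%, 54.7% and 133.3%. Sohlh2 and Figla, the closest in this order, had overlapping counting intervals in GO1. As the mean over cells, Nobox stood at 33.9% in GO1 and so below Lhx8 (40.2%).
The partial return in FGO was shared by many genes that had fallen. Across 7499 genes that reached 10 CPM at both steps, the log2 change from GO3 to FGO ran opposite to that from NGO to GO1, which shares no cells with it (r = -0.79, rho = -0.79, genes not being independent replicates). Of the 1563 genes among these that were higher in GO1 than in NGO, 8.83% were above their GO3 level in FGO. Of all 2193 genes lower in GO1 than in NGO, 2073 (94.5%) were above it. Of those 2193, 71.5% reached 10 CPM in GO3 or FGO and so could be called, and 7.02% were called higher in FGO. Among the 1569 that reached it the share was 9.82%, beside 2.41% of all 7622 genes with 10 CPM in GO3 or FGO. Of the 1569 genes lower in GO1 that reached 10 CPM in GO3 or FGO, none rose more than Sohlh1. Sohlh2, Figla and Lhx8 were exceeded by 7.07%, 22.7% and 88.6% of them. Without the 4 FGO cells in the NGO range, 3 genes exceeded Sohlh1 and r was -0.79. As the mean over cells, 1 gene exceeded it, r was -0.68 and 81.2% of the genes lower in GO1 were above their GO3 level. What part this common course has in the rise of Sohlh1 and Sohlh2 was not tested.
The return was not in 1 common proportion to NGO. Crabp1, Cldn6, Mageb4 and Trap1a, which were named after their values were seen because they were high in NGO and at or near 0 in GO1, stood at 0.374%, 1.67%, 2.97% and 2.55% of their NGO level in FGO, against 5.15% for Sohlh1.

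**Figure D2:**
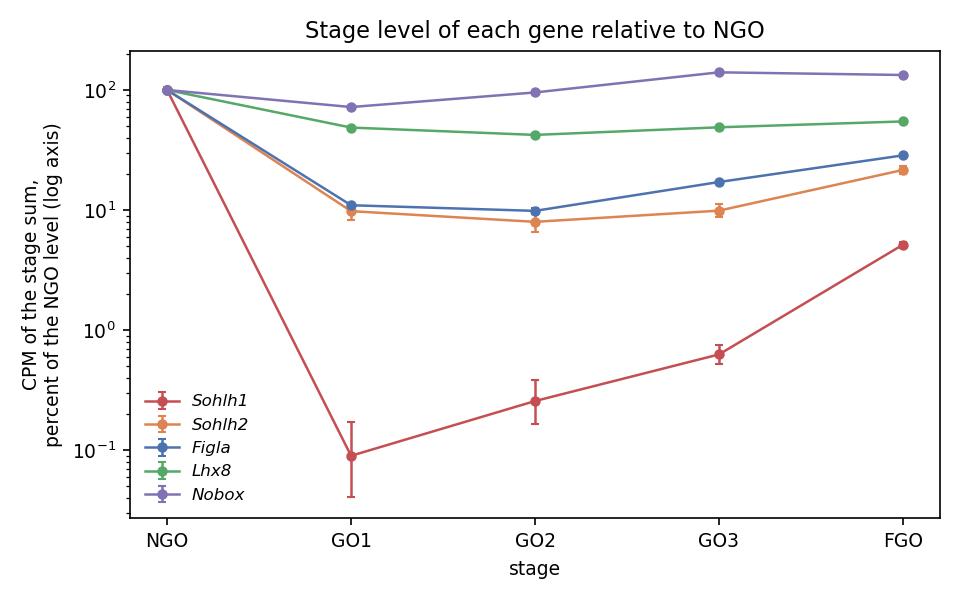
CPM of the stage sums of each gene as a percent of its NGO level (log axis) from NGO to FGO, with bars for the 95% counting intervals. Sohlh1 falls to 0.0900% in GO1 and reaches 5.15% in FGO, Sohlh2 and Figla run close together, and Nobox ends at 133.3%.

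Within a stage, cells of like size differed far more than counting error allows for the abundant members. In NGO, the coefficient of variation over cells was 42.9% for Sohlh1, 20.8% for Figla, 28.2% for Lhx8 and 26.4% for Nobox, where counting alone would give 9.48%, 7.59%, 9.54% and 5.33%. For Sohlh2 it was 52.03% against 24.8%. In FGO, Sohlh1 had by far the widest spread, at 164% against 30.3% from counting.

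Whether the members rise and fall together from cell to cell was described by Pearson's r of log2(CPM + 10) within each stage, for the 10 pairs of genes in each of 5 stages. The cells of a stage share libraries that cannot be told apart, and their depths differ, so r is given as a description with no p. In the 46 NGO cells, Sohlh1 ran with Figla (r = 0.59, rho = 0.59), with Sohlh2 (r = 0.46) and with Lhx8 (r = 0.44). Nobox did not run with Sohlh1 (r = -0.01), Figla (-0.13) or Lhx8 (-0.09).
None of the 5 was closely tied to depth in NGO (r with log2 of the total UMIs from -0.11 to 0.22), and after a linear fit on depth was removed, Sohlh1 and Figla stood at 0.59 as before. Only 32 of 7574 genes ran closer with Sohlh1 than Figla did, and only 2 ran closer with Figla than Sohlh1 did. An r of 0.5 or more with Sohlh1 was reached by 1.94% of genes. Thinned to 20000 UMIs, which leaves few UMIs of either gene in a cell, the pair gave r = 0.21.

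**Figure D3:**
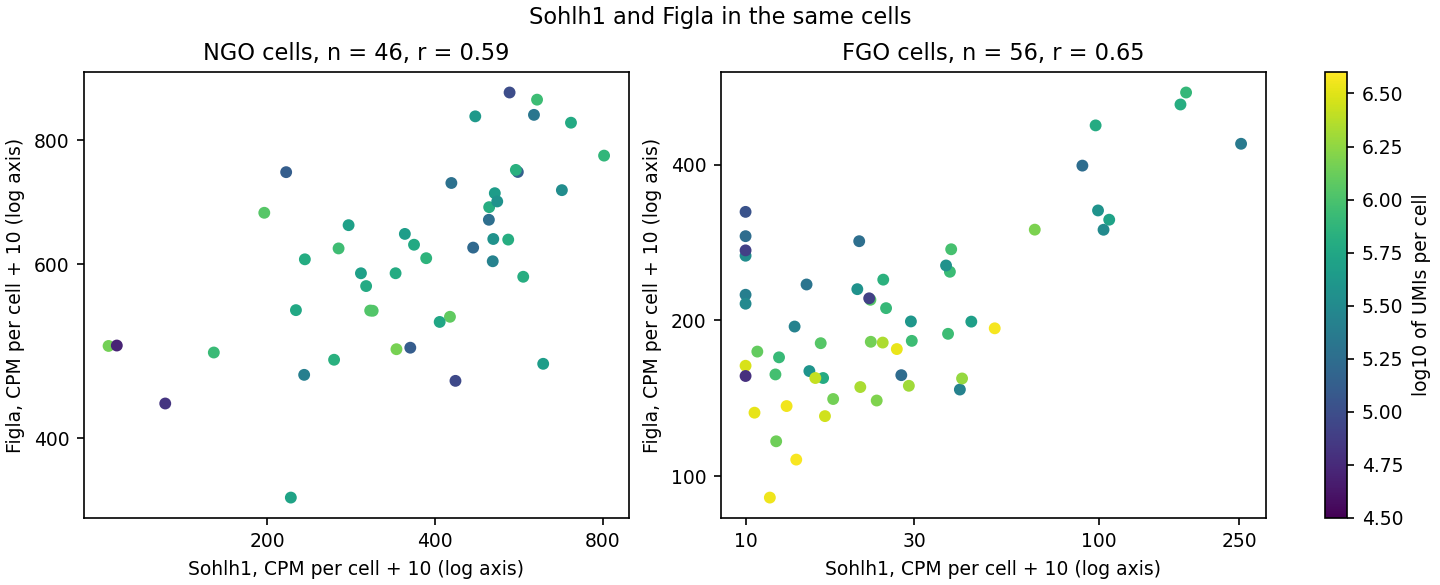
Figla against Sohlh1 in CPM per cell plus 10 (log axes), 1 point per oocyte, colored by log10 of its total UMIs, in the 46 NGO cells (left) and the 56 FGO cells (right). The 2 genes rise together in both stages, and in FGO the cells without Sohlh1, at 10 on the horizontal axis, still hold Figla.

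The pairing of Sohlh1 with Figla and Sohlh2 was seen again among the 56 FGO cells, after the stages in which Sohlh1 was nearly absent. There Sohlh1 and Figla gave r = 0.65 (rho = 0.42), and Sohlh1 and Sohlh2 r = 0.55 (rho = 0.52). Of 7273 genes, 10 ran closer with Sohlh1 than Figla did, and 2.34% of genes reached an r of 0.5.
The 4 FGO cells with Sohlh1 in the NGO range ranked 4th, 1st, 2nd and 8th of 56 in Figla, at 429, 542, 513 and 303 CPM. Without them, the r of Sohlh1 and Figla was 0.47 and that of Sohlh1 and Sohlh2 0.48. Sohlh2 and Figla gave r = 0.32. With depth removed, Sohlh1 and Figla stood at 0.72 and Sohlh2 and Figla at 0.51.
Lhx8 ran with Nobox in FGO. Lhx8 and Sohlh1 gave r = 0.00, Lhx8 and Sohlh2 r = 0.33, Lhx8 and Nobox r = 0.63 (rho = 0.62), and Figla and Nobox r = -0.44 (rho = -0.67). These members were tied to depth in FGO, with r of 0.57 for Lhx8, 0.58 for Nobox and -0.49 for Figla. With depth removed, Lhx8 and Nobox stood at 0.45 and Figla and Nobox at -0.22. The FGO cells also split by their number in the table, whose meaning is not given. Cells 1 to 37 all held at least 1092 CPM of Nobox, and cells 38 to 56 all held 988 CPM or less. The 4 FGO cells in the NGO range of Sohlh1 were numbers 25, 41, 48 and 49. The part of this split in the r values between FGO cells was not tested. Whether the r of 0.44 in NGO and of 0.00 in FGO for Sohlh1 and Lhx8 differ was not tested.
In the growing stages Sohlh1 and Sohlh2 were too sparse to be read in this way. In GO1, only 3 of 51 cells held both, and no pair of members exceeded r = 0.31. In the 26 GO2 cells, Lhx8, Nobox and Figla ran together (r = 0.67 to 0.88), and their rho was lower (0.28 to 0.65). High values were common in this stage, with a median r over 6819 genes of 0.43 with Lhx8 and 0.39 with Nobox. Of these genes, 25.2% ran closer with Lhx8 than Figla did and 12.2% closer with Nobox than Figla did. Only 2.23% ran closer with Lhx8 than Nobox did. The same 2 cells held the least Lhx8, the least Nobox and the least Figla of this stage, with Figla at 0 and 9.32 CPM. Their part in these r values was not tested. In GO3, Lhx8 and Nobox gave r = 0.49, and 0.31 with depth removed.

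**Figure D4:**
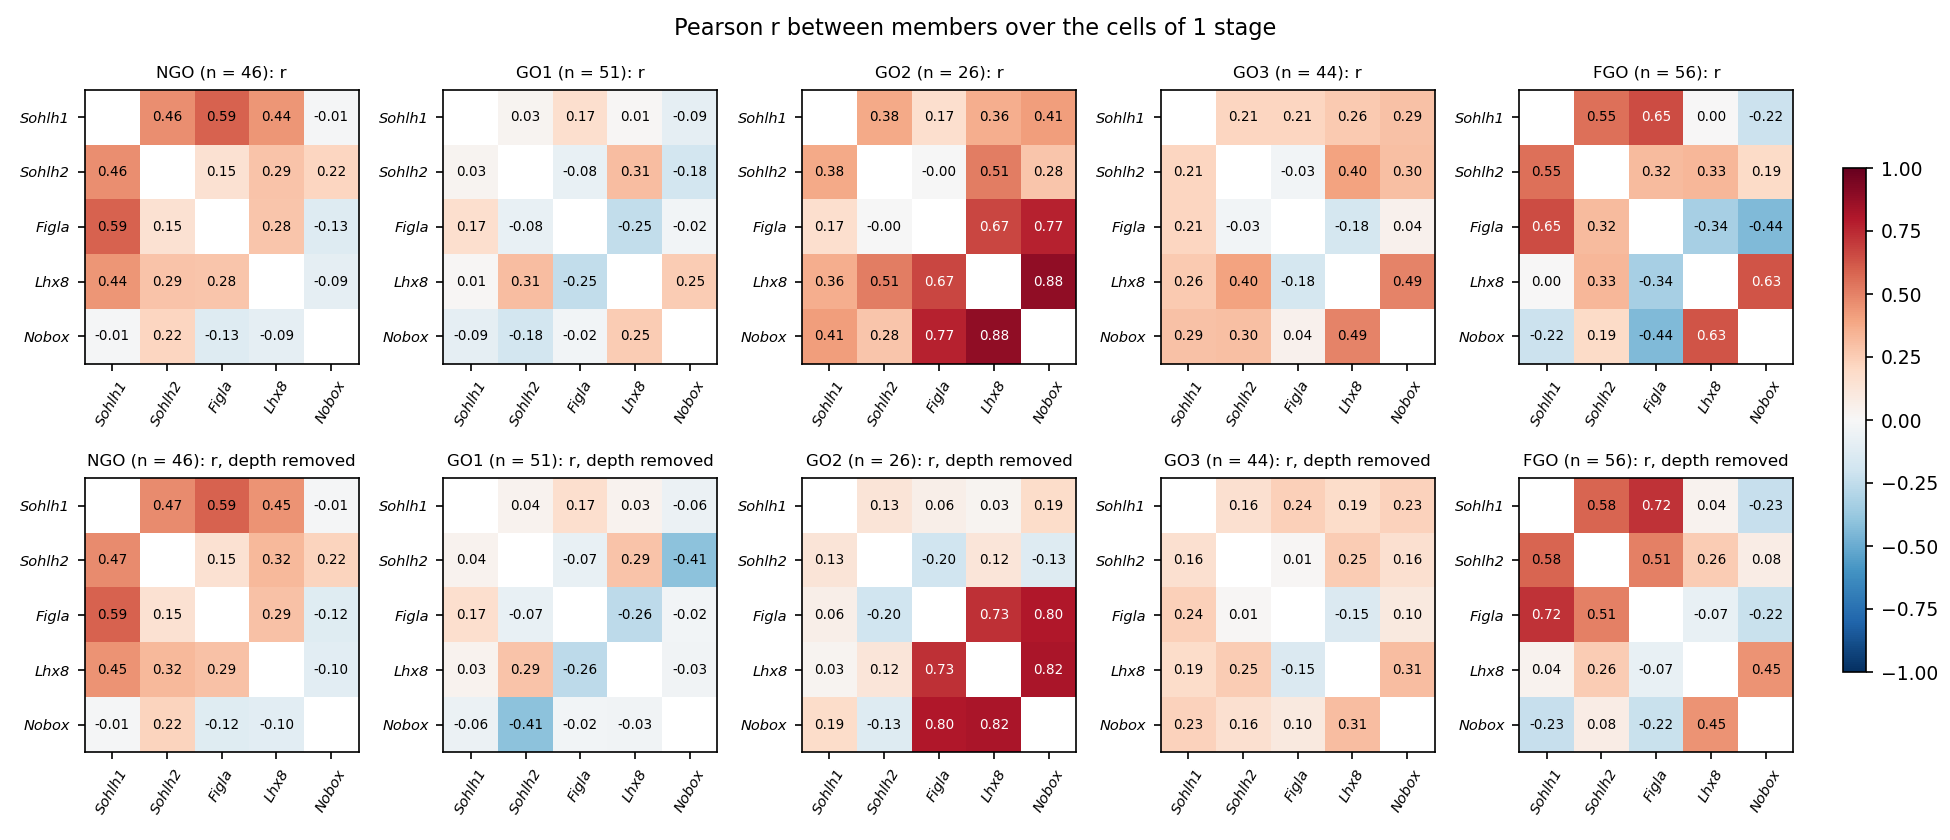
Pearson's r between the 5 genes over the cells of each stage (top row) and after a linear fit on log2 of the total UMIs was removed from each gene (bottom row), with n cells per stage. Sohlh1 and Figla stand at 0.59 in NGO and 0.65 in FGO, and Lhx8 and Nobox at -0.09 in NGO and 0.63 in FGO.

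The known targets of these factors were set against them in the same way. Figla did not run with the zona pellucida genes Zp1 (r = -0.18), Zp2 (0.06) or Zp3 (0.00) in NGO cells. In FGO cells it ran with Zp2 (r = 0.52) and Zp3 (r = 0.54), and the r with Zp1 was -0.01, or 0.35 with depth removed, and 4.10% of genes reached an r of 0.5 with Figla. The highest values were those of the 26 GO2 cells, where Figla gave 0.81 with Zp1, 0.80 with Zp2 and 0.85 with Zp3 (rho from 0.42 to 0.50). High values were common there, as the 95th percentile of r with Figla over 6819 genes was 0.81. The 2 GO2 cells with the least Figla, Lhx8 and Nobox are included, and their part was not tested. In GO1 and GO3, the r of Figla with the zona genes lay between -0.13 and 0.19. Sohlh1 also ran with Zp3 in FGO cells (r = 0.63, and -0.06 in NGO). The r of Sohlh1 with Zp1 was -0.18 in NGO and 0.23 in FGO, and that with Kit was 0.27 and 0.04.
Nobox ran with Mos, which encodes a kinase that holds the mature egg in meiotic arrest, in GO3 (r = 0.72) and FGO (r = 0.77), and with Gdf9, an oocyte growth factor, in FGO (r = 0.65). With depth removed these stood at 0.63, 0.62 and 0.42. In GO2 the r of Nobox and Mos was -0.02, or -0.54 with depth removed. In NGO it was -0.21, and in GO1 0.56, or 0.26 with depth removed. Nobox and Gdf9 gave -0.05 in NGO, 0.21 in GO1 and 0.52 in both GO2 and GO3. With depth removed, those of GO2 and GO3 stood at 0.14 and 0.39. Nobox and Pou5f1 gave -0.36 in NGO, 0.37 in GO1 (0.05 with depth removed), 0.19 in both GO2 and GO3, and 0.11 in FGO. In FGO, 26.7% of genes reached an r of 0.5 with Nobox, so such values were common there. The split of FGO cells by number in their Nobox level, given above, applies to these r as well, and its part was not tested. Oosp1, which encodes an oocyte secreted protein, ran against Nobox in NGO (r = -0.44), GO2 (-0.76) and GO3 (-0.65) and with it in FGO (0.51, or 0.22 with depth removed).

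Across stages, the genes downstream of the network moved in both directions. Of 13 downstream genes, 4 were lower in GO1 than in NGO and 5 were higher, beside 25.7% and 20.6% of all genes, with a median log2 change of 0.24. As the mean over cells, 3 were higher. Those that were lower were Zp1 (2727 to 1266 CPM), Zp2 (4250 to 827), Zp3 (11226 to 4217) and Pou5f1, a pluripotency factor (98.8 to 25.2). Those that were higher were the growth factor genes Bmp15 (128.6 to 825 CPM) and Fgf8 (74.1 to 241), and Rfpl4 (366 to 1021), H1foo, the linker histone of the oocyte (4651 to 9435), and Oosp1 (274 to 734).
Gdf9 (4919 to 4755), Mos (360 to 634), Zar1 (3201 to 1819) and Kit (88.3 to 104.1), the receptor of the kit ligand, did not pass in this step, and Kit was lower in GO2 than in GO1 (48.8 CPM), the single downstream gene to pass in a later step. In the stage sums, Zp2, the zona gene with the deepest fall, kept 28.2% of its NGO level in FGO, beside 28.5% for Figla, while Zp1 and Zp3 kept 80.8% and 66.9%. As the mean over cells, Figla kept 35.1%, and Zp2 went from 4131 CPM in NGO to 1234 in FGO.

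Partners and inhibitors of bHLH factors were lower at the same step, while Ldb1 and Lmo4, cofactors of LIM factors near 10 CPM, were not. Of 10 dimer partners and cofactors, 8 reached 10 CPM and 6 of these were lower in GO1, with none higher, beside 25.7% of all genes lower and 20.6% higher. The median log2 change over the 8 was -1.74, and as the mean over cells 1 gene was higher. They were the E proteins Tcf3 (85.8 to 36.6 CPM), Tcf4 (30.6 to 9.16) and Tcf12 (56.4 to 16.97), which pair with other bHLH factors on DNA, and the inhibitors Id1 (17.7 to 3.33), Id2 (40.0 to 9.83) and Id3 (185 to 12.9), which hold bHLH proteins off DNA. Ldb1 (9.09 to 13.7) and Lmo4 (7.46 to 10.4), a scaffold and a LIM protein, did not pass.
Id3 came closest to the course of the members, rising from 12.8 CPM in GO2 over 43.1 in GO3 to 83.4 in FGO, and was the 1 gene of this list higher in GO3 than in GO2. Tcf4 was the 1 gene higher in FGO than in GO3 (5.06 to 10.2 CPM), just past 2-fold. Id4, Ldb2 and, in the later stages, Id1 stayed below 10 CPM.

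Of 8 other regulators of the early oocyte, 6 reached 10 CPM, 3 were lower in GO1 and 1 was higher, beside 25.7% and 20.6% of all genes, with a median log2 change of -1.19. Stat3, a signaling transcription factor, fell from 576 to 124.4 CPM, Dynll1, a dynein light chain, from 2311 to 341, and Tbpl2, a TBP-related factor that drives transcription in the growing oocyte, from 177 to 14.5. Jag1, a Notch ligand, was higher (81.2 to 277 CPM). Sub1 (3341 to 3248) and Taf4b (13.5 to 11.9) did not pass.
Tbpl2 was higher in GO3 than in GO2 (9.21 to 35.04 CPM) and Dynll1 higher in FGO than in GO3 (339 to 684). Foxo3 and Lhx6 stayed below 10 CPM in every stage.

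**Figure D5:**
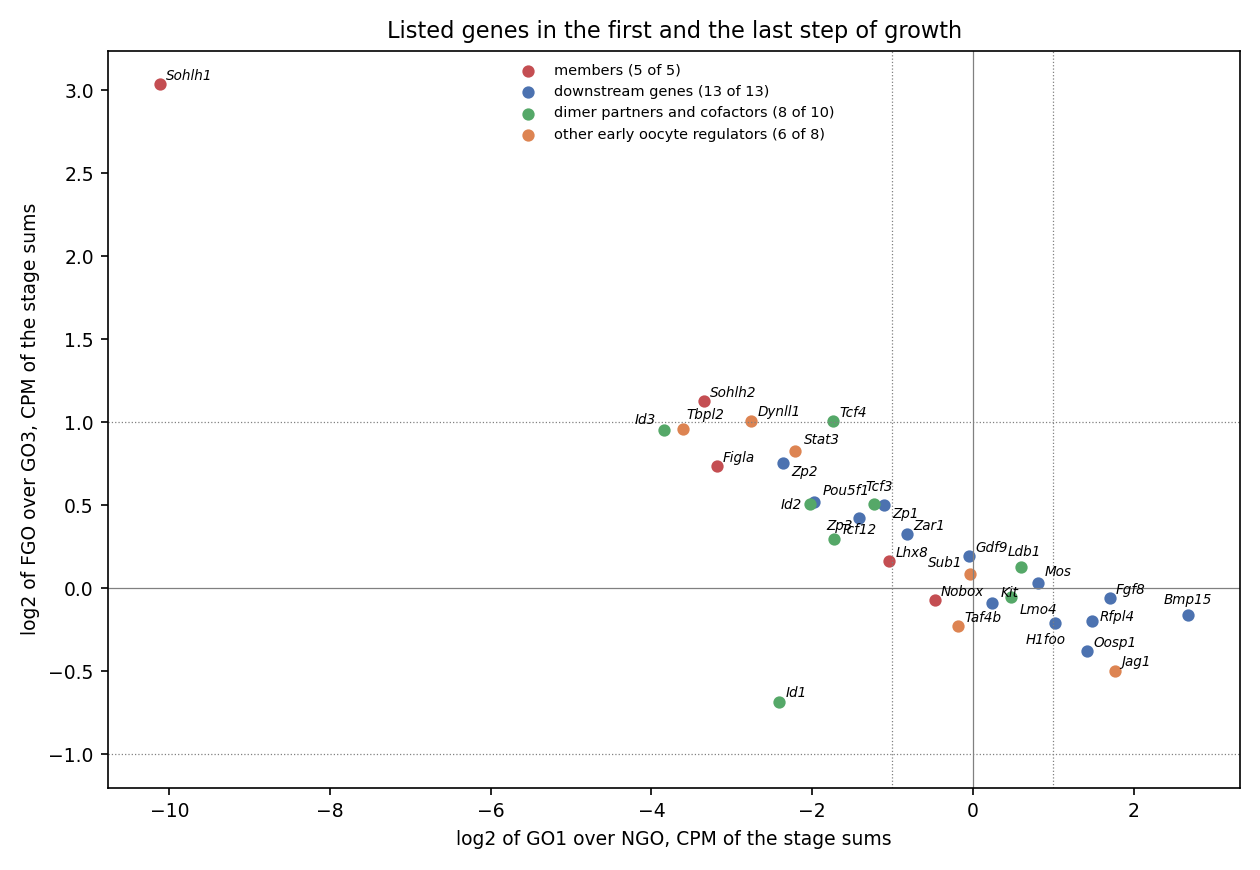
Log2 change from GO3 to FGO against log2 change from NGO to GO1 in CPM of the stage sums, for the listed genes that reached 10 CPM in any stage, colored by list, with dotted lines at 2-fold. Sohlh1 is farthest out, 10.12 log2 units down and then 3.04 up, and Sohlh2, Figla, Id3, Tbpl2, Dynll1 and Stat3 lie on the same side of both axes.

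The stage profiles were also set beside those of 8670 genes that reached 10 CPM, each profile being log2(CPM + 1) less its mean and the measure the root mean square difference. No gene had a profile near that of Sohlh1. The closest, Maged1, differed by 0.58, and went from 511 CPM in NGO to 5.42 in GO1 and 53.4 in FGO, followed by Myot and Eif4ebp1. For Sohlh2 the closest were Trabd, Ifngr2 and Kcnk1 (0.04 to 0.07), for Figla Rhox10, Psmg2 and Ier2 (0.07), for Lhx8 Tbrg4, Tmtc4 and Lca5l (0.03 to 0.04), and for Nobox Idh1, Slc38a6 and Tm2d2 (0.07 to 0.10).
Among the members, Sohlh2 and Figla were the closest pair (0.24), Figla being 87th of 8670 genes in likeness to Sohlh2. Nobox and Sohlh1 were the farthest pair (2.93), and no gene of the 8670 lay farther from Nobox than Sohlh1. As the mean over cells, most of the 3 closest genes changed for 4 of the 5 members. The added 1 CPM also shrinks falls to low levels. Trabd went from 12.8 CPM in NGO to 0.635 in GO1 and Ifngr2 from 14.7 to 0.598, deeper falls than that of Sohlh2 (54.2 to 5.31). Likeness over 5 stages is a coarse measure, and many genes that fell after NGO share this shape.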

How the data were processed

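Single-cell RNA-seq of 4 libraries was used. The authors split reads by cell barcode, ran Tophat against the transcriptome of build mm9, collapsed duplicate UMIs and deposited raw, unscaled UMI counts for the cells passing their filters on genes, transcripts and spike-ins. Counting strand is not given in the sources used here. The deposited barcode list does not tie cells to libraries, and libraries share from 8 to 96 barcodes, so the cells of 1 stage were treated as 1 sample, with no test between stages. Chromatin accessibility, DNA methylation and ERCC spike-ins were not analysed here.

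Counts were summed by stage and divided by the stage total (CPM), with exact Poisson intervals for sums, exact binomial intervals for ratios and Clopper-Pearson intervals for shares. The size rule (2-fold, 10 CPM) was run on all genes and checked on simulated counts. DESeq2 1.42.0 and edgeR 4.0.16 gave scaling alternatives only. Python 3.11.15 with numpy 2.4.6, pandas 2.3.3 and scipy 1.17.1 was used. Genes named were the members, every gene of the 3 lists past the size rule, and the 3 genes most like each member. Members and lists were chosen with earlier results of these data known.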

Additional observations from a re-analysis of the deposited data

How the results depend on the processing

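No paired analysis was possible because the cells carry no number that ties them across stages and no test between stages was made. Of the alternative values of the members' log2 changes, 6 changed direction, 4 lost and 11 gained the call, and all others kept both. Sohlh1 from GO1 to GO2 turned to -0.31 as the mean over cells and -0.35 without the 10 deepest cells of each stage, Figla in that step to 0.038 with DESeq2 size factors and 0.011 with TMM factors, Lhx8 in that step to 0.25 with thinned cells, and Lhx8 from GO3 to FGO to -0.029 as the mean over cells. Of the 5 members, 1 was higher in GO2 than in GO1 as the mean over cells, without the 10 deepest cells, with cells thinned to 20000 UMIs or with no filter on low counts, and 1 was higher in GO3 than in GO2 without the 10 deepest cells, at a limit of 1.5-fold or with no filter. With at least 50 CPM required, 0 were higher in FGO than in GO3. As the mean over cells or without the 10 deepest cells, 3 downstream genes and 1 dimer partner or cofactor were higher in GO1 than in NGO. Between NGO cells, thinning to 20000 UMIs, which leaves fewer UMIs per cell, lowered the r of Sohlh1 to 0.10 with Sohlh2 and 0.21 with Figla. Between FGO cells it lowered the r of Sohlh1 and Sohlh2 to 0.29, of Sohlh1 and Figla to 0.29 and of Lhx8 and Nobox to 0.26. The r of Sohlh1 and Figla in FGO was 0.42 as rho, 0.49 with a pseudocount of 1 CPM and 0.47 without the 4 FGO cells in the NGO range, a setting chosen after seeing the data, as was the removal of depth, which gave 0.45 for Lhx8 and Nobox. Sohlh2 and Nobox in GO1 turned to 0.26 as rho and 0.25 in cells with at least 50000 UMIs, and in GO2 to -0.13 with depth removed, and Sohlh1 and Figla in GO3 turned to -0.25 with thinned cells. The causes were not tested. A count of 0 allows up to 3 UMIs, or 0.112 CPM in the GO1 sum.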

Other observations

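The genes that ran with Sohlh1 from cell to cell overlapped in part between the 2 ends of growth. Of 6712 genes measured in both stages, 25 had an r of 0.5 or more with Sohlh1 both between NGO cells and between FGO cells. They made up 20.0% of the genes that reached it in NGO and 14.97% of the 167 that did in FGO. Ribosomal protein genes were both among the shared and the unshared genes. Rps3 (r = 0.76 in NGO and 0.53 in FGO) and Rpl13 (0.66 and 0.71) were shared, while Rps6 (0.77 and 0.25), Rpl15 (0.75 and 0.28), Rps3a1 (0.72 and 0.17) and Rps2 (0.68 and 0.21) were not. The chaperonin gene Hspd1 (0.50 and 0.64) was shared, as was Gpx4, which encodes a lipid peroxide reductase (0.54 and 0.59). Maged1 (0.52 and 0.58) and Eif4ebp1 (0.61 and 0.60), an inhibitor of translation initiation, were shared too, and were also among the 3 genes whose stage profiles were most like that of Sohlh1. These genes were named after their values were seen, and no test was made.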
